A study of Mus musculus with 4 samples.

Results

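The BCL6 peaks described here lie in LTR retroelements, the remains of retroviruses and their relatives in the mouse genome. A peak was taken when the authors' detailed annotation named an element of class LTR and the nearest annotated promoter was more than 1000 bp away. This gave 132 of the 1785 peaks of the inguinal list and 323 of the 3956 peaks of the perigonadal list, 455 of 5741 in all. The peaks come from chromatin immunoprecipitation and sequencing with a polyclonal antibody raised in guinea pig against mouse Bcl6 and made to order. Both groups used here were adipocyte nuclei of C57BL/6 mice of genotype Adipoq-Cre;Sun1-sfGFP-myc, one from inguinal (subcutaneous) and one from perigonadal (visceral) adipose tissue. The Adipoq promoter limits the Cre, and with it the tagged nuclear membrane protein by which nuclei were captured, to adipocytes. Animal ages, sexes and any pooling are not given in the sources used here. Each depot had 1 BCL6 library, and the 2 input libraries were not analysed here, so the spread between animals is unknown and no p-value is given. A peak list holds no expression levels, so the labelled tissue was not checked against markers.

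BCL6 is a zinc finger repressor that recognises DNA letters close to those of STAT factors and recruits corepressor and histone deacetylase complexes. An LTR is the terminal repeat of such an element and carries its promoter and polyadenylation signals. Many copies in the genome are solitary LTRs, left after the internal part was lost by recombination. The ERVL-MaLR family (its MLT1, MT and ORR1 groups) has no coding genes of its own. ERVL, ERVK and ERV1 are families of endogenous retroviruses. MLT1 copies are old and shared among mammals, whereas MT, ORR1 and ETn copies are found in rodents.

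The sequence of a single member could be read, because its whole peak falls in a RefSeq window around an annotated start site. It is shown as the one example of the bases under an LTR peak. The perigonadal peak at chr13:54946224-54946408 (GRCm38.p6) was annotated to an MLT1K element and had a score of 8.82, 10 tags and a focus ratio of 0.769. The authors' nearest promoter was that of Unc5a, a netrin receptor gene, 3.10 kb away, while the peak spans the RefSeq start of Gm31313, a long non-coding RNA gene. The borders and strand of the element are not in the files used here, so whether it reaches the start site is not known. The peak is printed on the minus strand, that of Gm31313, and the capitals mark the 12 bases from the RefSeq start site onward:
MLT1K peak at Gm31313: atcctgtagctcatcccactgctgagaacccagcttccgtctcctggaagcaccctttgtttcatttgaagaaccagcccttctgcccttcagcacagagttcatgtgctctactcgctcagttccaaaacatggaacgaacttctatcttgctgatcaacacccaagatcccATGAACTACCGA
These 185 bases held 49.2% G and C and 4 CG pairs. Neither TTCCNNGAA, a BCL6-type core, nor TTCNNNGAA, a STAT-type core that includes every match of the first, was found on either strand. In stretches of 185 bases from all 32851 RefSeq start-site windows, the first was present in 3.06% and the second in 5.38%. No genome was used here, so the bases under the other 454 peaks are not shown.

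Of all inguinal peaks 7.39% were LTR peaks, with a Wilson 95% interval of 6.27 to 8.70%. Of all perigonadal peaks 8.16% were, with an interval of 7.35 to 9.06%. The intervals of the depots overlap. All intervals cover counting error only, because each depot had 1 BCL6 library. Sequenced reads were also not tied to single molecules by identifiers. Under the same distance limit, LINE elements accounted for 6.50% of the inguinal peaks and 6.75% of the perigonadal peaks, and SINE elements for 4.82% and 7.28%. The share of LTR sequence in the genome was not computed, so these shares do not say whether peaks gather in LTRs.

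ERVL-MaLR elements were the most frequent, with 68 inguinal peaks, 51.5% of the LTR peaks (43.1 to 59.9%), and 155 perigonadal peaks, 48.0% (42.6 to 53.4%). ERVK elements followed with 30 inguinal peaks, 22.7%, and 88 perigonadal peaks, 27.2%. ERVL elements held 24 and 47 peaks, and ERV1 elements 7 and 29. For each of these 4 families the Wilson intervals of the depots overlap. Elements related to Gypsy retrotransposons held 3 inguinal peaks, 1 of them with an uncertain family label, and 1 perigonadal peak. The remaining 3 perigonadal peaks had an uncertain ERVK label or no family. Internal sequence, marked by names that end in -int, lay under 17 inguinal peaks, 12.9%, and 47 perigonadal peaks, 14.6%, and the other peaks lay in LTRs proper.

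**Figure D1:**
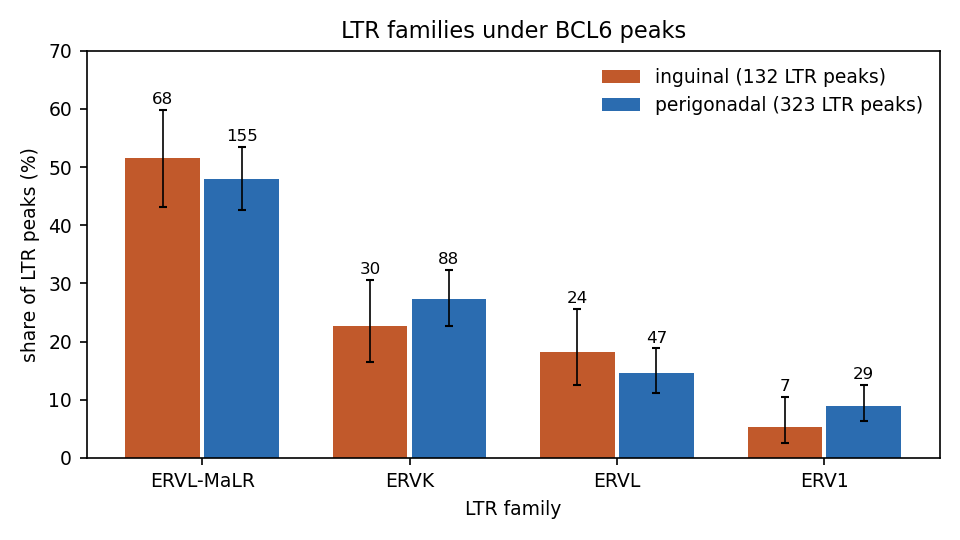
Share of LTR peaks in each of 4 LTR families (vertical axis, percent), inguinal bars left of perigonadal bars, with Wilson 95% intervals as error bars and the number of peaks above each bar. ERVL-MaLR elements held 68 of 132 inguinal and 155 of 323 perigonadal LTR peaks.

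The peaks were spread over many element types. The inguinal list named 82 elements and the perigonadal list 152, with 50 in common and 184 in all. A single peak was found for 56 inguinal and 87 perigonadal element names. MTD, an ERVL-MaLR element, was the most frequent in both lists, with 10 inguinal and 20 perigonadal peaks. ORR1E followed with 6 and 14 peaks. MTE2b held 5 inguinal and 3 perigonadal peaks, RMER15 held 4 and 9, MTC 4 and 9, and MTEa 4 and 8. Perigonadal peaks of ORR1A2, MT2A and ORR1D2 numbered 7 each, those of ORR1B1, ORR1F and RMER13B 6 each, and those of MLT1K and RMER5 5 each. No peak of either list carried the name of an IAP element, the intracisternal A particle retrotransposons of the mouse. ETn internal sequence, from another mobile ERVK group, held 2 inguinal peaks and 3 perigonadal peaks. A peak list shows what was called, so a count of 0 does not show that BCL6 was absent there.

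Most LTR peaks were low. The deposited score is the authors' value for each peak and is scaled within a list. Inguinal LTR peaks ran from 6.77 to 35.4 with a median of 8.27, against 6.77 to 200.1 with a median of 9.03 for the other peaks of that list. Perigonadal LTR peaks ran from 6.17 to 35.3 with a median of 8.82, against 5.29 to 260.1 with a median of 8.82 for the others. The scores are whole multiples of one step per list, which was read as 1 tag, a sequenced fragment end counted in the peak. More than 12 tags supported 31 of 132 inguinal LTR peaks, 23.5%, against 42.8% of the other peaks, a difference of -19.3 percentage points (95% interval -26.1 to -11.0). Of perigonadal LTR peaks 44 of 323 had more than 12 tags, 13.6% against 24.9%, a difference of -11.3 points (-14.9 to -6.92). LTR peaks were thus lower in both lists by more than counting error, although peaks of 1 library are not replicates and no test was run. LINE peaks had more than 12 tags in 31.0% of inguinal and 11.2% of perigonadal cases, and SINE peaks in 15.1% and 8.68%. Of these repeat classes, the intervals of the difference from LTR peaks included 0 in each list.

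The focus ratio, a deposited fraction that is high where the tags of a peak are well centred, was similar in LTR peaks and in the rest. Its median was 0.800 for inguinal LTR peaks (95% interval of the median 0.789 to 0.846) and 0.812 for the other inguinal peaks. For perigonadal peaks it was 0.833 in LTRs (0.833 to 0.846) and 0.833 elsewhere. Across LTR peaks it ran from 0.571 to 0.941 for inguinal peaks and from 0.526 to 0.95 for perigonadal ones. Tag counts this low allow few distinct ratios.

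The tallest inguinal LTR peak lay in an LTR16A element 57.7 kb upstream of Atp2b1, which encodes a plasma membrane calcium pump (chr10:98857349-98857551, mm10, the build of all peak positions here). Its score was 35.4, with a Poisson interval of 26.0 to 47.0, rank 41 of the inguinal list, and the overlapping perigonadal peak scored 27.3 (18.6 to 38.8), rank 126. It was the only inguinal LTR peak with more than 30 tags. The next lay in internal MTC sequence 6.39 kb upstream of Serhl, a serine hydrolase-like gene (chr15:83093716-83093918), with an inguinal score of 21.8 and a perigonadal score of 23.8. An MTE2b element 94.7 kb from Slc22a23, a solute carrier gene, scored 19.6 in the inguinal list (chr13:34439743-34439945). Scores of 18.1 were found in an MTD element in intron 7 of 15 of Pdlim5, a gene for a PDZ and LIM domain scaffold protein (chr3:142293678-142293880), and in an MLT1H2 element in intron 1 of 3 of the non-coding gene 4921529L05Rik. An MLT1F1 element in intron 10 of 26 of Rasgrf1, which encodes a Ras exchange factor, scored 16.5 (chr9:89979384-89979586). All of these 6 inguinal peaks overlapped a perigonadal peak. At a score of 13.5 the peak near Ehbp1 also had a partner, while those near Plxnc1, a plexin receptor gene, and Gm2447 had none.

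The tallest perigonadal LTR peak lay in an LTR31 element in intron 1 of 9 of Flvcr2, a membrane transporter gene (chr12:85758874-85759058). It scored 35.3 (Poisson interval 25.2 to 48.0), rank 65 of its list, and the overlapping inguinal peak scored 15 (9.19 to 23.2), rank 295. An RLTR25B element 96.0 kb from the non-coding gene C730036E19Rik followed with 31.7 and no inguinal partner (chr1:151233966-151234150). The Atp2b1 site was the third perigonadal LTR peak of more than 30 tags. An MLT1B element 7.73 kb upstream of Selenop, which encodes the selenium carrier selenoprotein P, scored 26.4, and its inguinal partner 12.8 (chr15:3262949-3263133). An MT2A element 26.3 kb from Tdrp, a gene named for a role in testis development, also scored 26.4. An RMER13B element 3.27 kb upstream of Chil3, a chitinase-like gene known from alternatively activated macrophages, scored 22.0 (chr3:106170737-106170921). Scores of 19.4 were found in internal MMERVK9E sequence in intron 1 of Desi2, in an MLT1J1 element near Odf1, a sperm tail protein gene, and in an MT2A element 274.9 kb from C630028M04Rik. Of the 10 tallest perigonadal LTR peaks 4 had an inguinal partner, those at Flvcr2, Atp2b1, Selenop and Serhl.

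Few elements recurred among the taller peaks. MT2A, the LTR of an ERVL group, was singled out after its values were seen. It had 5 of its 7 perigonadal peaks above 12 tags (Wilson interval 35.9 to 91.8%), beside 13.6% of all perigonadal LTR peaks. The interval does not allow for the choice of this element among many. Besides the sites near Tdrp and C630028M04Rik, these included a site 2.28 kb upstream of Cblb, a ubiquitin ligase gene, with 17.6 (chr16:52029182-52029366), and a site near Pard6g, a cell polarity gene, with 13.2. The 2 MT2A peaks of up to 12 tags scored 10.6 in Gsr, the glutathione reductase gene, and 7.93 in Mrtfa, a coactivator gene. Inguinal MT2A peaks scored 13.5, 10.5 and 8.27, and the middle one is the Pard6g site, the single MT2A site with a peak in both depots.

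Internal RMER15 sequence, singled out after its values were seen, had 3 perigonadal peaks. All had more than 12 tags, beside 13.6% of all perigonadal LTR peaks. They scored 16.7 near Cdkn2aip, a p53 pathway regulator gene (chr8:47697823-47698007), 15.9 in intron 1 of 3 of Zfp963, a zinc finger gene (chr8:69746162-69746346), and 15.9 near Tent5a. Inguinal peaks at the first 2 of these sites scored 9.03 and 15.8. The RMER15 LTR itself had 9 perigonadal and 4 inguinal peaks, and none exceeded 12 tags or had a partner. Other frequent elements were mostly low. MTD had 2 of 10 inguinal and 2 of 20 perigonadal peaks above 12 tags, and MTC 0 of 4 and 0 of 9. Internal MTC sequence, less frequent, had 1 of 1 inguinal and 2 of 2 perigonadal peaks above 12 tags.

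**Figure D2:**
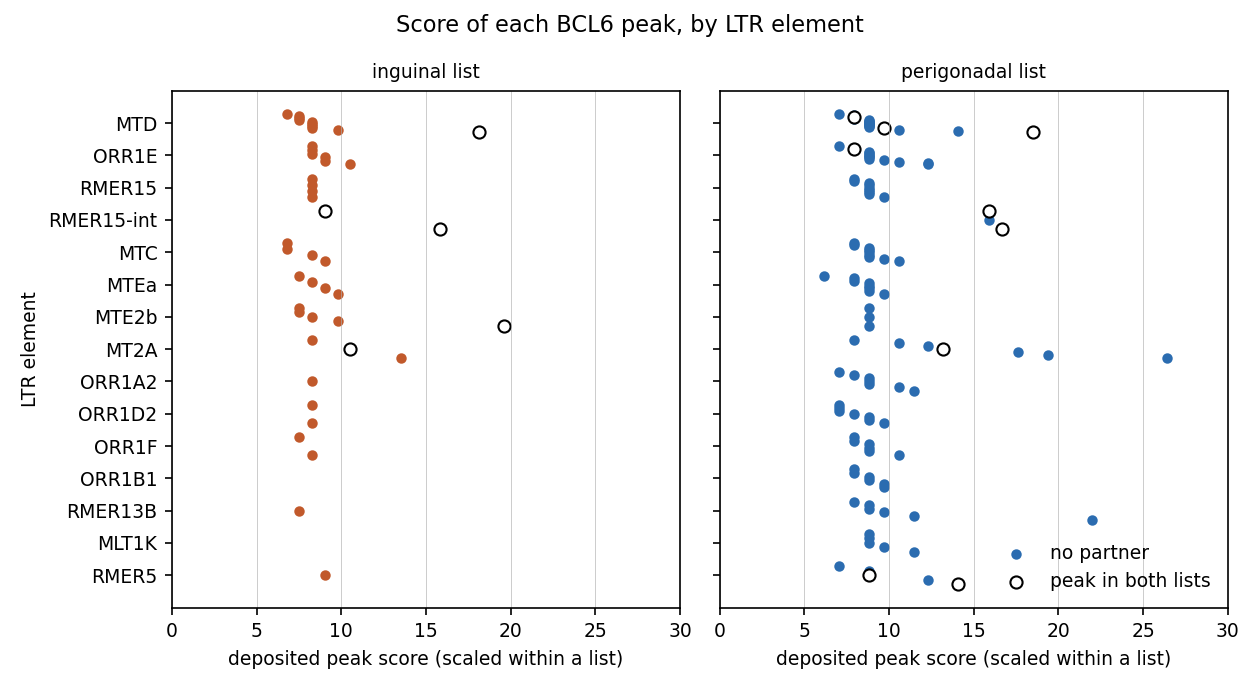
Deposited score (horizontal axis) of every BCL6 peak in 15 LTR elements (rows), inguinal list on the left and perigonadal list on the right, with open circles for peaks that overlap a peak of the other list. Most points lie below a score of 10, and the 3 internal RMER15 peaks of the perigonadal list lie at 15.9 and 16.7.

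Within ERVL-MaLR the share of peaks above 12 tags was highest for MLT1 and lowest for ORR1 in both lists. The Wilson intervals of the 3 groups overlap in each list. Of MLT1 peaks 7 of 18 inguinal and 8 of 37 perigonadal ones had more than 12 tags. Of MT peaks 6 of 31 and 4 of 56 did, and of ORR1 peaks 1 of 19 and 3 of 62. Partners followed a like order in the inguinal list, with 4 of 18 MLT1, 3 of 31 MT and 0 of 19 ORR1 peaks. Perigonadal partners numbered 3 of 37, 5 of 56 and 1 of 62. The groups were compared after their values were seen, and the difference was not tested.

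A peak was called shared when it overlapped a peak of the other depot by 1 bp or more. This held for 18 inguinal LTR peaks, 13.6% (Wilson interval 8.80 to 20.5%), against 29.6% of the other inguinal peaks, a difference of -16.0 points (95% interval -21.3 to -8.79). Of perigonadal LTR peaks 22 were shared, 6.81% (4.54 to 10.1%), against 13.4% of the others, a difference of -6.57 points (-9.11 to -3.11). LTR peaks had a partner less often than the rest in each list, by more than counting error. SINE peaks were shared in 5.81% of inguinal and 2.78% of perigonadal cases, and LINE peaks in 21.6% and 9.74%. LTR peaks exceeded SINE peaks in the perigonadal list by 4.03 points (0.576 to 7.59), whereas the other intervals against these classes included 0.

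Sharing rose with peak height, both for LTR peaks and for the others. Among peaks of up to 12 tags, 5 of 101 inguinal LTR peaks were shared, 4.95%, against 7.08% of the others, and 8 of 279 perigonadal LTR peaks, 2.87%, against 3.15%. Among peaks of 13 to 30 tags the shares were 12 of 30 against 52.9% in the inguinal list, and 12 of 41, 29.3%, against 36.8% in the perigonadal list. The single inguinal and 2 of the 3 perigonadal LTR peaks of more than 30 tags were shared. In each of these bands the 95% interval of the difference included 0, although LTR shares were the lower ones in the 2 lower bands of both lists. Above 30 tags the intervals, -73.5 to 11.6 points inguinal and -66.0 to 8.12 perigonadal, were too wide to show a difference. At the shares of the other peaks in the same bands, 24.0 inguinal and 26.5 perigonadal LTR peaks would have a partner, beside the 18 and 22 observed. These counts carry no interval, and whether height accounts for the lower sharing was not tested.

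**Figure D3:**
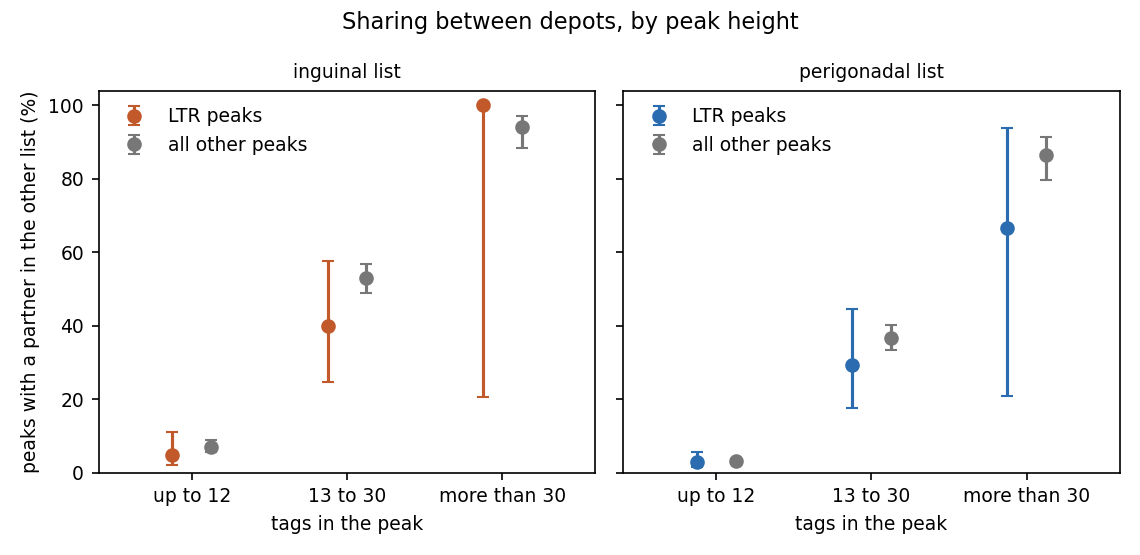
Share of peaks with a partner in the other depot's list (vertical axis, percent) in 3 bands of tags, for LTR peaks in colour and all other peaks in grey, with Wilson 95% intervals. For peaks of 13 to 30 tags the shares were 12 of 30 against 52.9% in the inguinal list and 29.3% against 36.8% in the perigonadal list, with overlapping intervals.

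In all, 25 sites had a peak in both depots and an LTR annotation in at least 1 list. At 15 sites both peaks were annotated to an LTR, and at all 15 the element name was the same. Peaks that overlap lie at the same place in the genome, so a common name follows largely from the rule. At 3 sites only the inguinal and at 7 only the perigonadal peak was placed in an LTR. The overlap ran from 14 to 185 bp with a median of 139 bp, and the peak centres lay 4 to 180 bp apart. Both peaks rested on more than 12 tags at 14 sites and on up to 12 tags at 5.

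The 15 sites were 5 ERVL-MaLR, 4 ERVL, 4 ERVK, 1 ERV1 and 1 Gypsy element. Apart from those already given, an MLT1C element 24.0 kb from Appbp2os scored 12 in the inguinal list and 12.3 in the perigonadal list. An LTR81A element of the Gypsy family, 154.2 kb upstream of Lef1, which encodes a Wnt pathway transcription factor, scored 9.78 and 12.3 (chr3:130956040-130956242). RLTR13D3 elements held the shared sites 101.0 kb from Ehbp1, with 13.5 and 9.70, and 2.78 kb upstream of Gm4951, with 9.03 and 8.82. An MLTR11A element 1.28 kb upstream of Tnfsf14, the gene of the TNF family ligand LIGHT, scored 9.03 and 11.5. Internal ETn sequence in intron 1 of 4 of Aoc1, the diamine oxidase gene, scored 8.27 and 10.6 (chr6:48901339-48901541).

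Among sites placed in an LTR in a single list, a site in intron 1 of 2 of Glrx, the glutaredoxin gene, scored 12.8 in inguinal and 14.1 in perigonadal adipocytes, and only the perigonadal peak lies in RMER5. A site 49.98 kb upstream of Klhl24 scored 20.3 in the inguinal list and 7.93 in the perigonadal list, where it lies in MTD. Sites near Gm8013 and Fam43a scored 15 and 12 in the inguinal list and 12.3 and 9.70 in the perigonadal list. Scores are scaled within each list and show no direction between depots.

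**Figure D4:**
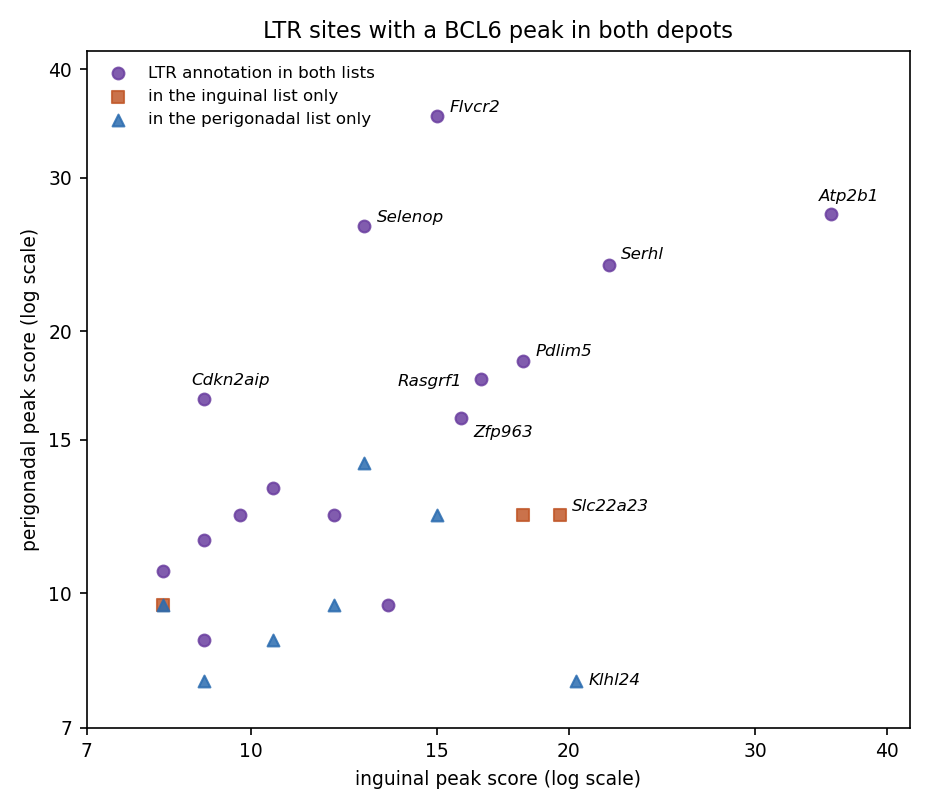
Inguinal (horizontal, log scale) against perigonadal (vertical, log scale) score at the 25 sites with a peak in both lists and an LTR annotation in at least 1, with 1 point per site and 10 sites named. Atp2b1 has the highest inguinal score, 35.4, and Flvcr2 the highest perigonadal score, 35.3.

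LTR peaks lay between genes more often than other peaks. The annotation places an LTR peak in an intron or between genes and nowhere else, so it was compared with peaks of those 2 positions beyond 1 kb. Introns held 52 of 132 inguinal LTR peaks, 39.4%, against 52.4% of the other such peaks, a difference of -13.0 points (95% interval -21.3 to -4.10). They held 116 of 323 perigonadal LTR peaks, 35.9% against 53.3%, a difference of -17.4 points (-22.8 to -11.8). LINE peaks were intronic in 37.1% of inguinal and 38.6% of perigonadal cases, and SINE peaks in 58.1% and 57.6%. The intervals of the difference from LINE peaks included 0 in both lists, whereas those from SINE peaks did not.

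The median distance to the nearest promoter was 25.6 kb for inguinal LTR peaks, against 33.9 kb for other peaks beyond 1 kb. In the perigonadal list it was 38.7 kb against 34.2 kb, so the lists did not go the same way. Within 50 kb of a promoter lay 59.1% of inguinal LTR peaks, against 61.5% of the other peaks beyond 1 kb, and 58.2% against 60.1% in the perigonadal list. LTR peaks lay upstream of the nearest promoter in 53.0% of inguinal cases, against 38.4% of other peaks beyond 1 kb, a difference of 14.7 points (5.82 to 23.3). In the perigonadal list the shares were 45.2% and 40.8%, a difference of 4.40 points whose interval, -1.19 to 10.1, included 0. These other peaks were not limited to introns and positions between genes. Inguinal LINE peaks lay upstream in 48.3% of cases, and LTR peaks differed by 4.75 points (-7.61 to 16.9). Inguinal SINE peaks did in 38.4%, a difference of 14.7 points (1.11 to 27.3). Perigonadal LINE and SINE peaks did in 43.1% and 39.9%, with intervals of the difference that included 0.

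Few LTR peaks lay near the limit of 1000 bp. Just beyond it were inguinal peaks 1.08 kb from 4833411C07Rik, 1.19 kb from Fyttd1 and 1.28 kb from Tnfsf14, with scores of 8.27, 8.27 and 9.03. The closest perigonadal ones lay 1.19 kb from Tnfsf14, 1.19 kb from Rfpl4b and 1.55 kb from Arhgef10, with 11.5, 8.82 and 7.05. A single LTR peak fell inside the limit, in the perigonadal list, 844 bp from Gm19276 with a score of 7.05. A peak annotated to a promoter carries no element name, so the annotation itself keeps this number low.

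The 132 inguinal peaks had 130 nearest genes and the 323 perigonadal peaks 318, and no gene was nearest to 3 or more LTR peaks of a list. Within 50 kb, 77 genes had an inguinal and 188 a perigonadal LTR peak, of which 66 and 164 are protein-coding. The 10 genes found in both lists, 13% of the inguinal and 5.32% of the perigonadal genes, were Aoc1, Appbp2os, Cdkn2aip, Flvcr2, Gm4951, Pard6g, Selenop, Serhl, Tnfsf14 and Zfp963. Of the genes with another kind of peak within 50 kb, 412 were found in both lists, 41.3% of 997 inguinal and 19.9% of 2074 perigonadal genes. These shares were higher than those of LTR peaks, but the comparison is not on equal terms. A gene of an LTR peak counted only where the other list also had an LTR peak near it. LTR peaks are far fewer than the other peaks, which by itself lowers such a share. The difference between genes was not tested. At each of the 10 genes with an LTR peak in both lists, the LTR peaks of the depots overlapped. Cdkn2aip had a further inguinal LTR peak, in ORR1D1, with 6.77.

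Of all 21900 protein-coding genes in the RefSeq table, 4.25% had any inguinal and 8.89% any perigonadal peak within 50 kb. An LTR peak lay at that distance for 0.301% of these genes in the inguinal list and 0.749% in the perigonadal list. Among protein-coding genes with any peak at that distance, 7.09% of 931 inguinal and 8.43% of 1946 perigonadal genes had an LTR peak. The counts for 6 lists of genes known from BCL6 biology, adipocyte function and retroelement silencing stand beside these shares as a description. Of 20 insulin signalling genes, 4 had an inguinal peak within 50 kb and 0 an LTR peak, and 14 had a perigonadal peak and 2 an LTR peak. These were Cblb, by the MT2A site above, and Insr, the insulin receptor gene, with 8.82 in RLTR17B_Mm in intron 2 of 20, 47.0 kb from the promoter. Insr also had perigonadal peaks outside LTRs and closer to the promoter, with scores of 15.9, 8.82 and 7.93. Of 20 genes of lymphocyte and innate immunity, 7 had an inguinal peak and 2 an LTR peak. A peak in MYSERV6-int within an intron of Ubac2 was nearest to Gpr183, a B cell migration receptor gene, and an RMER15 peak 22.7 kb from Irf1, an interferon regulatory factor gene, scored 8.27 as well. In the perigonadal list 5 of these 20 had a peak and 0 an LTR peak.

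In the other 4 lists 0 genes had an LTR peak within 50 kb, which says little about them at a share of under 1% of all genes. Of 17 genes that act in growth hormone, IGF or STAT5 pathways, 7 had an inguinal and 8 a perigonadal peak. Of 22 adipocyte identity genes 4 and 6 had one, and of 16 BCL6 corepressor genes 0 and 3. Of 31 genes that silence retroelements, 1 had an inguinal peak, Morc3, an ATPase gene needed for silencing, with 8.27, and 1 a perigonadal peak, Dnmt3b, a DNA methyltransferase gene, with 8.82. These counts describe single libraries and were not tested.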

How the data were processed

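BCL6 ChIP-seq peak lists of 2 adipose depots were used, 1 library each. Per the labels' protocols, tissue was fixed with disuccinimidyl glutarate for 30 minutes and 1% formaldehyde for 10 minutes, and tagged nuclei were captured before immunoprecipitation. Bowtie 1.2, HOMER and mm10 are named in the submitters' processing notes. Per the file headers, peaks were annotated with HOMER on mm10; the inguinal header names a false discovery rate limit and the perigonadal header none, so limits may differ. The deposited peak score is a signal scaled by the authors. The deposited focus ratio is a fraction. The deposited distance to the nearest promoter is in bp. All scores were whole multiples, within rounding, of 0.752 for inguinal and 0.882 for perigonadal peaks, and a step was read as 1 tag. The total scaled to is not given, so depth is unknown.

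LTR peaks were selected by annotation with Python 3.11.15, pandas 2.3.3 and SciPy 1.17.1. Overlap, step and interval functions were tested on simulated data. Shares carry Wilson intervals, differences Newcombe intervals, medians binomial order-statistic intervals and scores exact Poisson intervals, all at 95%. Differences are LTR minus other peaks. Gene symbols came from the RefSeq table of GRCm38.p6 by Entrez number, which matched all 132 and 323 LTR peaks. The named items were the 10 tallest LTR peaks of each list, up to 15 LTR peaks with a partner, elements with at least 5 peaks, genes with LTR peaks in both lists, members of 6 gene lists and peaks next to the distance limit. Members and lists were chosen with earlier results of these data known. The planned motif search was limited to 1 peak, for want of a genome. Alternatives covered the distance limit, class label, tags, list length, chromosomes and overlap rule. The site of 1 LTR peak is not reported here.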

Additional observations from a re-analysis of the deposited data

How the results depend on the processing

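Of 73 alternative values, 58 stayed within the 95% interval of the reported value. The other 15 came from 3 settings. Part of the 58 could not move. The stricter class label kept the same 132 and 323 LTR peaks, and dropping the distance limit left the inguinal LTR peaks unchanged. With peaks of more than 12 tags alone, LTR peaks were 4.20% of inguinal and 4.63% of perigonadal peaks, their median scores were 11.3 and 13.2, and their shares with a partner were 38.7% and 27.3%. Under the same setting, introns held 29.0% of the inguinal LTR peaks, the perigonadal median focus ratio was 0.851, and ERVL-MaLR held 34.1% of the perigonadal LTR peaks. With the perigonadal list held to the length of the inguinal list, LTR peaks were 6.16% of it, with a median score of 10.6, a median focus ratio of 0.857, 38.2% in ERVL-MaLR and 16.4% with a partner. Both settings remove low peaks by construction. More than 5000 bp from a promoter, LTR peaks were 7.31% of the perigonadal list. The 3 other rules for a partner gave 11.4 to 15.2% in the inguinal and 4.64 to 6.81% in the perigonadal list. No paired analysis was possible because each depot had 1 BCL6 library. Low tag counts limit all values, since 101 of 132 inguinal and 279 of 323 perigonadal LTR peaks had up to 12 tags.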

Other observations

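LTR peaks were found on all autosomes and on chromosome X. Chromosome X held 1 of 132 inguinal LTR peaks and 13 of the 1653 other inguinal peaks, and 5 of 323 perigonadal LTR peaks and 25 of the 3633 others. Chromosome 3 had the highest share of LTR peaks among the autosomes in both lists, 12 of its 95 inguinal and 25 of its 214 perigonadal peaks.

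Neighbouring peaks were rare for LTR peaks and for the others alike. Another peak of the same list lay within 10 kb of 3.79% of inguinal LTR peaks, against 4.23% of the other peaks, and of 4.33% against 6.19% in the perigonadal list. Of each list, 2 LTR peaks had another LTR peak within 50 kb. Of the 114 inguinal LTR peaks without a partner, 10 had a perigonadal peak within 10 kb, 8.77%, against 6.88% of the other inguinal peaks without one. In the perigonadal list 10 of 301 did, 3.32% against 3.46%.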
